A study of Homo sapiens with 18 samples.

Results

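The replication-dependent histone genes were taken by symbol, as the protein-coding genes named H1-1 to H1-6, or H2AC, H2BC, H3C or H4C followed by a number, together with H4-16 and H2BU1. The rule found 62 genes among the 19068 genes listed in either of 2 human cell lines: 6 H1, 15 H2A, 16 H2B, 12 H3 and 13 H4 genes. HL-60, a promyelocytic line, listed 55 of them among 17110 genes, and MOLM-13, a monocytic line, listed all 62 among 17475 genes. The 7 genes with a value in MOLM-13 alone were H1-1, H1-5, H2BC9, H2BC14, H3C6, H3C7 and H3C8. RefSeq names 7 more genes by this scheme that the rule did not find under those symbols, H2AC1, H2AC25, H2BC1, H2BC10, H3C3, H4C6 and H4C7. H2AC25 is listed as H2AW, outside the rule, and is counted here among the histone variants, with no call for either drug in either line.

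Both lines come from acute myeloid leukaemia, and RNA of each was sequenced after 48 h in the solvent dimethyl sulfoxide (DMSO), in decitabine (DAC) or in NTX-301, with 3 samples in each of the 6 groups. Decitabine, a cytidine analogue, is built into DNA and holds DNA methyltransferases there, while NTX-301 is an investigational inhibitor of DNA methylation. HL-60 received 30 nM and MOLM-13 received 15 nM, stated in a way that leaves unclear whether both drugs had that dose, so dose and line cannot be told apart. The labels speak of triplicates on multiwell plates and name no separate cultures, so p-values measure the spread between these samples, which may be technical. Values are the deposited normalized log2 values, and a difference between 2 groups is a log2 fold change. Of 12 myeloid marker genes, 11 were listed in each line, MPO at a mean of 18.71 in HL-60 DMSO samples and LYZ at 16.47 in MOLM-13. The lowest of them were CSF1R, at 6.60 in HL-60, and CEBPE, at 8.19 in MOLM-13. None of 4 T cell markers was listed in HL-60 and 1 was in MOLM-13 (CD3D, at 7.45). Among the B cell, T cell, erythroid and epithelial or stromal markers, the highest were CD79A in HL-60, at 6.43, and HBB in MOLM-13, at 8.62. The summed myeloid markers moved with some groups: their log2 sum was 19.08 to 19.17 in HL-60 DMSO samples and 18.72 to 18.76 with NTX-301, and 18.27 to 18.29 in MOLM-13 DMSO samples and 18.64 to 18.68 with DAC. The part of this in the histone values was not tested.

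Chromosomal DNA is wrapped around cores made of histones H2A, H2B, H3 and H4, and a linker histone H1 binds where the DNA enters and leaves. The genes described here supply the histones that new DNA needs during S phase, lie in clusters, and are switched on together by NPAT at the histone locus body when cyclin E and CDK2 become active. Their messages mostly lack introns and a poly(A) tail and end instead in a stem-loop bound by SLBP, which governs their processing, translation and rapid decay when replication stops. A stranded total RNA kit served for the libraries, and it takes RNA with and without a poly(A) tail.

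The stem-loop is shown because it is the usual end of these messages. It was searched in GENCODE v29 transcripts and found in 30 of the 62 genes. A transcript without a match says only that these letters are not in that model. Capitals mark the 2 arms of the stem and lower case the loop, and T stands for U.
H2A, H2B and H3, the most frequent form: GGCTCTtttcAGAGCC
H2B and H3, a second form: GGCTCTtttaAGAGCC
H4, the most frequent form: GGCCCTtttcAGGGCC
H4, another form: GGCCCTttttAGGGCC
The uppermost form was in 5 H2A, 8 H2B and 3 H3 genes, and the next in 3 H2B genes and 1 H3 gene. The H4 genes with a match all had 1 of the last 2 forms, in 5 and 3 genes, and no gene of another family had either. Further forms were found in 1 H2A and 1 H3 gene.

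In MOLM-13 the histone genes fell almost as a body with both drugs. With DAC, 57 of 62 genes fell, none rose, and the median log2 fold change was -0.41, a change of -24.5% on the linear scale. With NTX-301, 56 of 62 fell, none rose, and the median was -0.33, a change of -20.3%. The background over 17475 genes was 21.2% called lower and 15.4% called higher with DAC, and 24.8% and 20.3% with NTX-301, and the medians over all genes were 0.0013 and 0.0034. Most histone genes have a high level, and among the 8445 genes whose mean reached 10 the shares called lower were 39.9% (DAC) and 45.9% (NTX-301), and those called higher 14.5% and 17.5%. A call is an adjusted p under 0.05 in limma, with Benjamini-Hochberg adjustment over all genes of the line. The 2 comparisons use the same DMSO samples. In bulk RNA, fewer cells in S phase and less histone RNA per cell cannot be told apart.

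**Figure D1:**
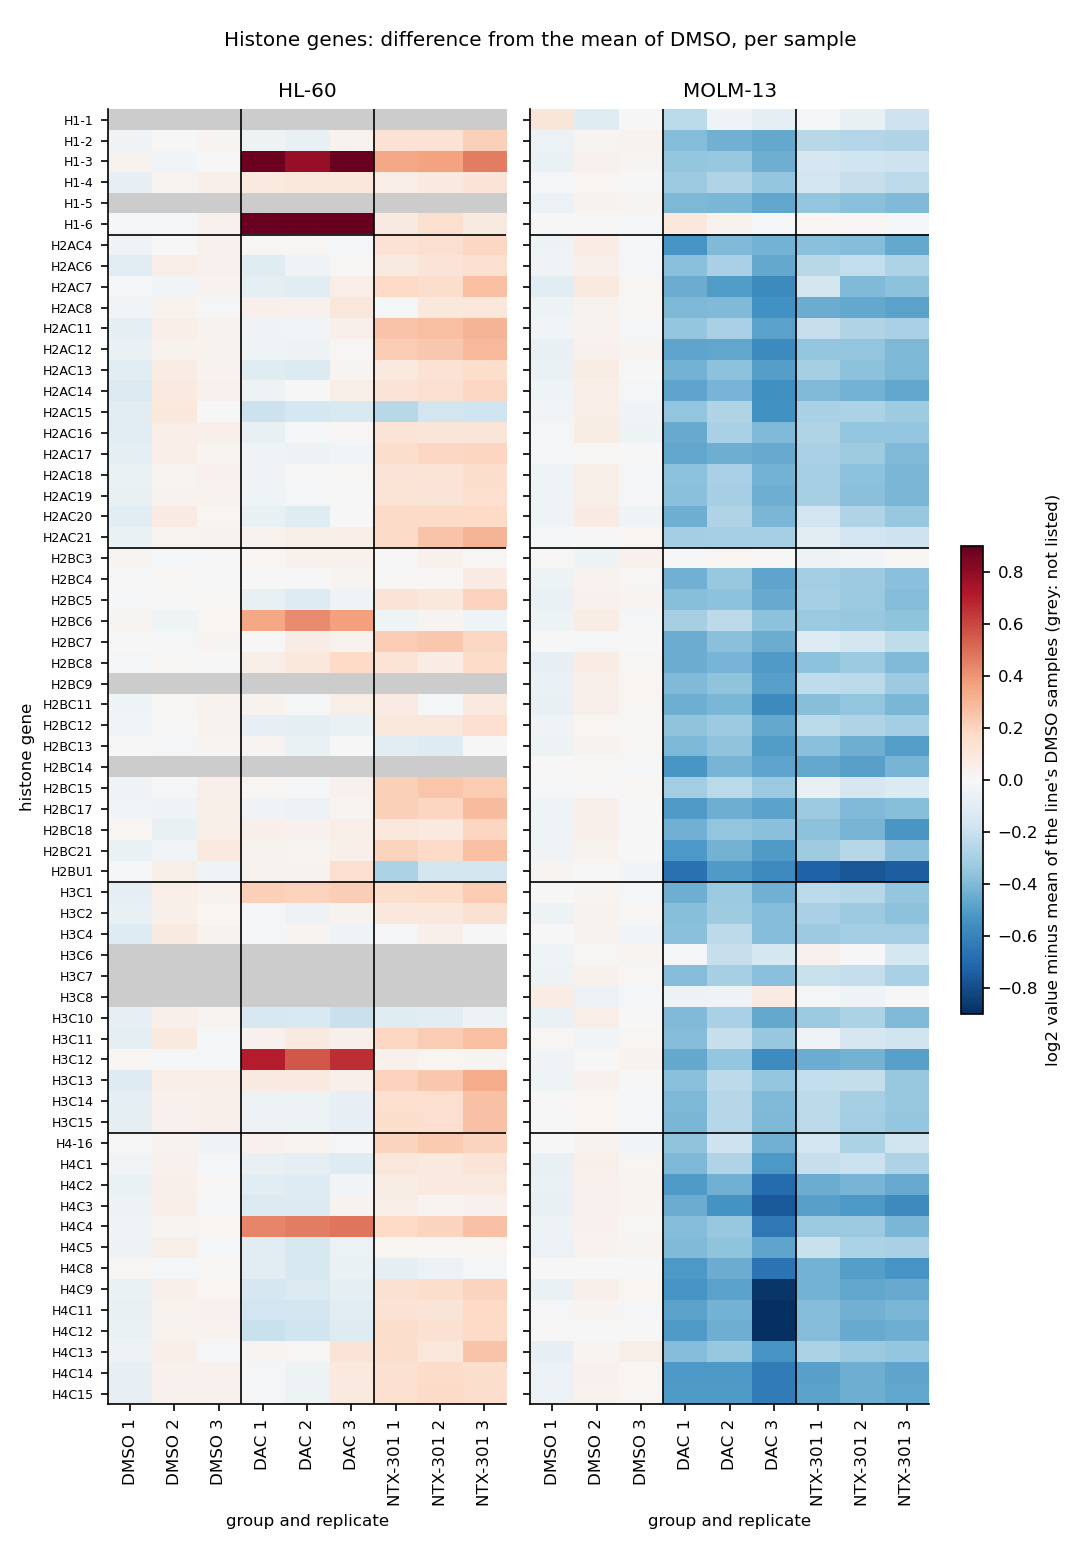
Heat map of the 62 histone genes (rows, by family) in the 9 samples of each line (columns); colour is the log2 value minus the mean of the line's 3 DMSO samples, and grey marks genes with no listed value. In MOLM-13 the DAC and NTX-301 columns are blue for nearly all genes, while in HL-60 a few genes are dark red with DAC and many are pale red with NTX-301.

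The core histone H4 showed the lowest family median in MOLM-13. All 13 H4 genes fell with each drug, with medians of -0.54 (DAC) and -0.43 (NTX-301). H4C9 stood at 13.31, 13.41 and 13.39 in DMSO, at 12.84, 12.89 and 12.50 in DAC and at 12.94, 12.90 and 12.91 in NTX-301. Every treated sample lay below every DMSO sample, and the third DAC sample was the lowest of the 9. The log2 fold change of H4C9 was -0.63 ± 0.08 (SE, n = 3 per group, adjusted p = 8.24e-05, limma) with DAC and -0.45 ± 0.08 (adjusted p = 0.000572, limma) with NTX-301. H4C12 read 14.72, 14.73 and 14.72 in DMSO, 14.21, 14.28 and 13.79 in DAC and 14.33, 14.27 and 14.28 in NTX-301. Again no treated sample reached the DMSO samples, and the third DAC sample stood apart. That sample had the lowest median of the 62 genes, -0.46 against -0.40 and -0.34 in the other DAC samples, and among H4 genes -0.64 against -0.48 and -0.43. Without it the H4 median was -0.47, still the lowest of the 5 families, and H4C9 was at -0.51. H4-16, an H4 gene outside the main clusters, fell least in its family, by 0.33 and 0.21.

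The H2A genes, 15 of 15 with either drug, and 15 of 16 H2B genes also fell in MOLM-13. H2AC11, the highest H2A gene there, read 14.89, 14.95 and 14.91 in DMSO, 14.57, 14.62 and 14.43 in DAC and 14.71, 14.64 and 14.62 in NTX-301. The groups did not overlap with DMSO, and the changes were -0.37 and -0.26. H2BC12, an H2B gene with the highest deposited mean of its family, not scaled to length, changed by -0.38 and -0.27, again without overlap. The family medians were -0.39 and -0.34 for H2A and -0.42 and -0.34 for H2B. The lowest value with NTX-301 of all 62 genes belonged to H2BU1, an H2B gene on chromosome 1 away from the large clusters. H2BU1 read 8.69, 8.67 and 8.64 in DMSO, 7.99, 8.15 and 8.09 in DAC and 7.94, 7.89 and 7.93 in NTX-301. The 3 groups were separate from each other, and the fold changes were -0.59 ± 0.05 (SE, n = 3 per group, adjusted p = 1.15e-05, limma) and -0.75 ± 0.05 (adjusted p = 1.4e-06, limma).

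Among the H3 genes 10 of 12 fell in MOLM-13 with DAC and 9 with NTX-301, with medians of -0.35 and -0.29. H3C2, the H3 gene with the highest deposited mean, read 15.28, 15.36 and 15.33 in DMSO, 14.94, 15.00 and 14.93 in DAC and 15.03, 15.00 and 14.95 in NTX-301. H3C11 was called with DAC (-0.31) and not with NTX-301 (-0.12, adjusted p = 0.0546, limma), although its NTX-301 samples lay at or below the lowest DMSO sample to 2 decimals. For the linker histones, 4 of 6 genes fell, with medians of -0.35 and -0.19. H1-5, the linker gene with the highest level per length in MOLM-13, read 16.18, 16.27 and 16.26 in DMSO, 15.83, 15.83 and 15.77 in DAC and 15.88, 15.86 and 15.84 in NTX-301. Its treated samples all lay below DMSO, by 0.43 and 0.38 on average. The 5 genes with no call under either drug, H3C8, H1-6, H2BC3, H1-1 and H3C6, were the 5 with the lowest deposited DMSO means among the 62, from 3.89 to 8.50. The deposited values of the lowest genes vary little between samples. The median range over 9 samples was 0.0268 for MOLM-13 genes with a mean of 0 to 3, against 0.257 for those with a mean of 8 to 12. None of these 5 genes had a mean as low as 3, and H1-1 had the highest SD of the histone genes in MOLM-13 DMSO samples, 0.1063. In HL-60, H1-6, H3C12 and H2BC6, at DMSO means of 6.40, 5.80 and 5.71, were called with DAC, while H2BC3, at 3.52, was not. Whether a small range of low values keeps histone genes from being called was not tested.

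**Figure D2:**
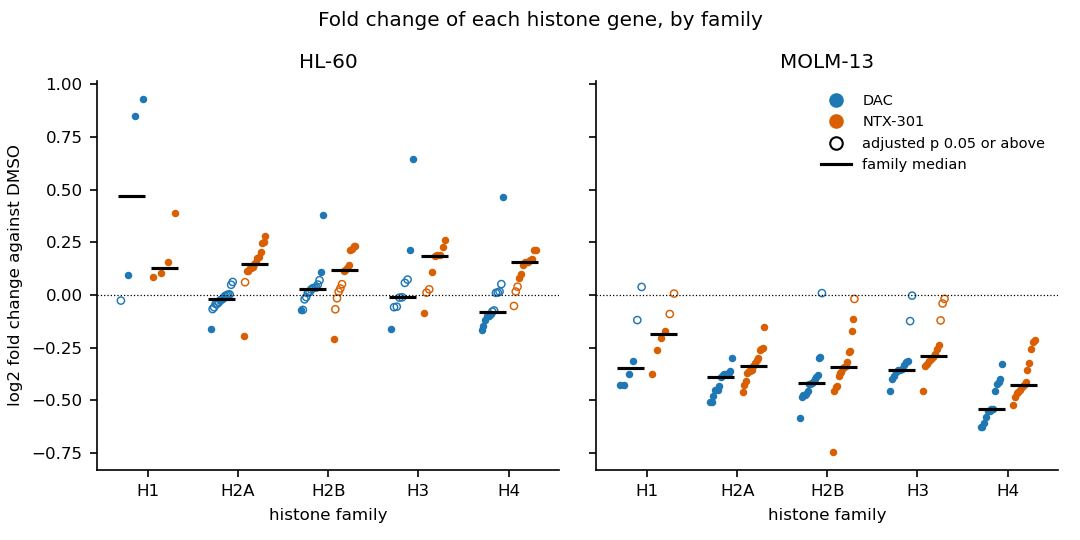
Log2 fold change against DMSO (y) of each histone gene by family (x), in HL-60 and MOLM-13; filled points passed an adjusted p of 0.05, open points did not, and bars are family medians. H4 has the lowest medians in MOLM-13, -0.54 with DAC and -0.43 with NTX-301, whereas in HL-60 all NTX-301 medians lie above 0.

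In HL-60 with DAC, most histone genes had no call. Of 55 genes, 8 rose and 9 fell, against a background of 11.6% of 17046 genes called higher and 12.6% called lower (13.9% and 21.7% of 7842 genes with a mean of 10 or more), and the median was -0.01. Both shares are near the background. The histone genes that rose reached far higher values than those that fell. The same held over all genes tested, which ran from -0.72 to 2.70. The 5 highest were H1-6 (0.93), H1-3 (0.85), H3C12 (0.64), H4C4 (0.46) and H2BC6 (0.38). H3C1 (0.21), H2BC8 (0.11) and H1-4 (0.09) rose less. Of the 9 genes that fell, 6 were H4 genes, and the lowest value was -0.17 (H4C12). Without the first DMSO sample, whose histone median lay 0.06 below the DMSO mean, 7 genes rose and 15 fell.

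H1-3, a linker histone gene, read 7.61, 7.55 and 7.57 in HL-60 DMSO samples, 8.45, 8.36 and 8.47 in DAC and 7.92, 7.94 and 8.04 in NTX-301. All 3 groups were apart, with DAC highest. The increase was 0.85 ± 0.04 with DAC (SE, n = 3 per group, adjusted p = 9.44e-09, limma), or 80.3%, and 0.39 ± 0.04 with NTX-301 (adjusted p = 7.81e-06, limma). H1-6, the linker histone of the testis, read 6.37, 6.38 and 6.44 in DMSO, 7.28, 7.33 and 7.37 in DAC and 6.48, 6.54 and 6.47 in NTX-301. The DAC samples stood well above both other groups, by 0.93 ± 0.04 over DMSO (SE, n = 3 per group, adjusted p = 6.57e-10, limma). With NTX-301 the H1-6 difference was 0.10 (adjusted p = 0.0401, limma), and it lost its call in 7 of 17 alternative settings, with values from 0.06 to 0.12.

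H3C12, an H3 gene, read 5.82, 5.79 and 5.79 in HL-60 DMSO samples, 6.51, 6.36 and 6.47 in DAC and 5.84, 5.82 and 5.83 in NTX-301. The DAC samples stood apart, by 0.64, and the NTX-301 difference of 0.03 had no call. H2BC6 and H4C4 were picked out after their values were seen. H2BC6, an H2B gene, read 5.73, 5.67 and 5.72 in DMSO, 6.05, 6.13 and 6.08 in DAC and 5.67, 5.73 and 5.67 in NTX-301. H4C4, its neighbour in the gene order and an H4 gene, read 12.01, 12.07 and 12.06, then 12.49, 12.50 and 12.53, then 12.23, 12.25 and 12.31. DAC samples were highest for both genes. H4C4 rose with both drugs, by 0.46 and 0.21, while H2BC6 was called with DAC alone.

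**Figure D3:**
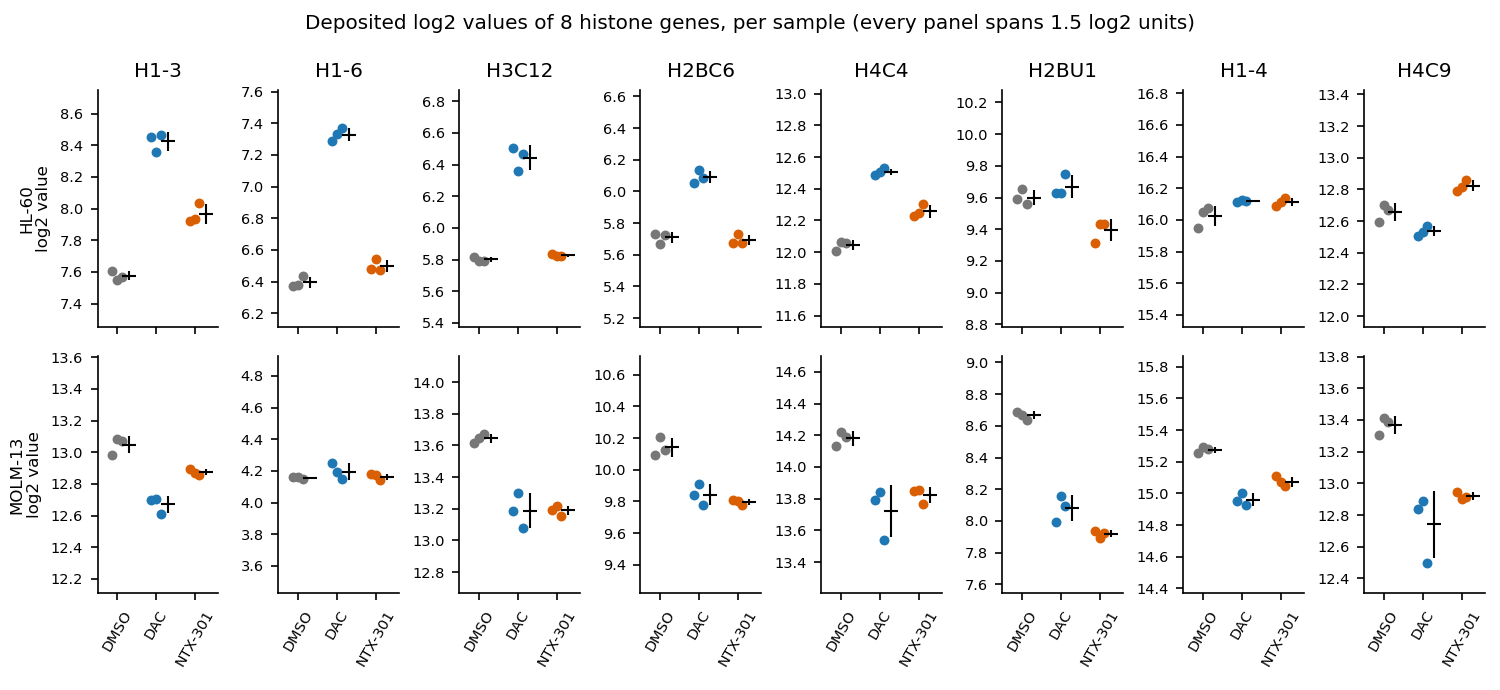
Deposited log2 values (y) of 8 histone genes in each sample by group (x), with HL-60 above and MOLM-13 below; points are samples, dashes with bars are the mean and SD of 3, and every panel spans the same log2 range. In HL-60 the DAC samples of H1-3, H1-6, H3C12, H2BC6 and H4C4 lie above all others, and in MOLM-13 the treated samples lie below DMSO for every gene shown except H1-6.

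Promoter sequences are shown for the 4 genes with the highest DAC values in HL-60 that have an entry, because the drugs act on methylation of CG, and for H2BC21 and H2BU1 as genes that were not called there with DAC. They are the 250 bases before the start in RefSeq, build GRCh38.p14, read 5′ to 3′ on the gene's strand, with each CG in capitals. The positions are chr6:26108136-26108385 (H1-6, minus strand), chr6:26234988-26235237 (H1-3, minus), chr6:26189113-26189362 (H4C4, minus), chr6:26183511-26183760 (H2BC6, plus), chr1:149886683-149886932 (H2BC21, minus) and chr1:228457853-228458102 (H2BU1, plus).
H1-6: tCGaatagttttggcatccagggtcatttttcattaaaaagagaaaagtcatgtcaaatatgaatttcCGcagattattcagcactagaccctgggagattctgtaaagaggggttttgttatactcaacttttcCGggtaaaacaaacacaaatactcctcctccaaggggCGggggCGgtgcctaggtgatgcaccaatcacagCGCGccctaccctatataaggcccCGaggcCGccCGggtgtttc
H1-3: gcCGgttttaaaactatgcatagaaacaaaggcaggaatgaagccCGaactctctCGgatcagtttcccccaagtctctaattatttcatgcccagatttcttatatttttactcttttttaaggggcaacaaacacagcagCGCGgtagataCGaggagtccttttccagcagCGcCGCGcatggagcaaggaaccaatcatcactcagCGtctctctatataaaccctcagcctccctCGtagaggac
H4C4: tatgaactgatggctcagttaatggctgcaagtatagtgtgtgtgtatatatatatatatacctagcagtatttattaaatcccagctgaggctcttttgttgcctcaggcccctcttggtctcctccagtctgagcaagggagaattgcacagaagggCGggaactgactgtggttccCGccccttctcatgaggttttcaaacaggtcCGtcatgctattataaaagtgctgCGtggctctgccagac
H2BC6: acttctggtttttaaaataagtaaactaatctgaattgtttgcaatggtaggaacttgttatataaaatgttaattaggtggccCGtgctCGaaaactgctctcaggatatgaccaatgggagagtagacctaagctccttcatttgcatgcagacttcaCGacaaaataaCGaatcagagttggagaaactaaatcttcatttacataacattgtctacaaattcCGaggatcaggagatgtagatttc
H2BC21: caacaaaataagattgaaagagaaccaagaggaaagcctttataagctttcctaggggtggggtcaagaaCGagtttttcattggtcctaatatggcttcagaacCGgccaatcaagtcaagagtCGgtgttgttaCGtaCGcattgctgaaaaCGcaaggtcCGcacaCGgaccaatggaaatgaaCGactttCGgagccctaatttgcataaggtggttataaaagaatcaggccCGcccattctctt
H2BU1: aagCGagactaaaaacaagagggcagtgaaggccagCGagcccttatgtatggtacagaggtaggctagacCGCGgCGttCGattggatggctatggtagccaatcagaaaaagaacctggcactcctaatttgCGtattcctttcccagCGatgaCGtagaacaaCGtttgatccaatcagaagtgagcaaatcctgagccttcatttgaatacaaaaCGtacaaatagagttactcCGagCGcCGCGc
These windows hold 10 CG in H1-6, 11 in H1-3, 4 in H4C4, 5 in H2BC6, 11 in H2BC21 and 15 in H2BU1. Of the 62 genes 57 have a RefSeq entry, with a median of 9 CG, against 11 over 27305 promoters of the same length. In HL-60 the median was 6 CG over 7 genes that rose with DAC, 12 over 8 that fell and 9 over 35 with no call. The ranges overlapped, at 4 to 19, 3 to 15 and 3 to 22 CG. Most of the genes that fell were H4 genes, whose windows had a median of 13 CG. Whether the number of CG goes with the DAC change was not tested. Methylation of these sites was not measured here.

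A few short motifs, searched on both strands, describe how the families differ in the same windows. CCAAT was in 84.2% of the 57 windows and in 33.0% of all promoters, in every H1, H2A, H2B and H3 window but in only 2 of 11 H4 windows. TATAAA was in 68.4% against 11.1%. ATTTGCAT, the octamer read by POU2F1, was in 12 of 16 H2B and 10 of 14 H2A windows, in 1 of 10 H3 windows and in no H1 or H4 window, against 1.7% of all promoters. AAACACA was in all 6 H1 windows and no other, against 4.9%. A match is a run of letters, and binding was not measured. Windows of neighbouring genes may share sequence and so count the same match for more than 1 gene, which was not checked. H2AC14 and H2BC14, for example, each have 9 CG and 38.8% GC.

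NTX-301 raised most histone genes in HL-60, by small amounts. Of 55 genes 41 rose and 3 fell, against backgrounds of 18.3% and 19.2% (19.0% and 33.7% of genes with a mean of 10 or more), with a median of 0.14, or 10.3%. When the first DMSO sample, the one with low histone values, was left out, 34 rose and 3 fell. By family, 4 of 4 H1, 13 of 15 H2A, 8 of 14 H2B, 6 of 9 H3 and 10 of 13 H4 genes rose, and family medians ran from 0.12 (H2B) to 0.18 (H3). H2AC11 read 14.20, 14.34 and 14.31 in DMSO, 14.25, 14.26 and 14.33 in DAC and 14.54, 14.55 and 14.59 in NTX-301. Its DAC and DMSO samples overlapped, and its NTX-301 samples lay above all of them, by 0.28 ± 0.03 over DMSO (SE, n = 3 per group, adjusted p = 1.44e-05, limma). H1-4, the linker gene with the highest level per length in HL-60, read 15.95, 16.05 and 16.07 in DMSO, 16.11, 16.12 and 16.12 in DAC and 16.09, 16.11 and 16.14 in NTX-301. Its treated samples lay just above DMSO, by 0.09 with each drug. H3C13, another H3 gene, rose by 0.26.

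The 3 genes that fell with NTX-301 in HL-60 were H2BU1 (-0.21), H2AC15 (-0.20) and H3C10 (-0.08). With each sample centred on its median, 5 genes fell. H2BU1 read 9.59, 9.65 and 9.56 in DMSO, 9.63, 9.63 and 9.75 in DAC and 9.31, 9.43 and 9.43 in NTX-301. The NTX-301 samples were below the other 6. H2AC15, an H2A gene, fell with both drugs (-0.16 with DAC). H3C10 overlapped with DMSO and lost its call in 9 of 17 alternative settings.

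The drugs were also set side by side, with the caution that equal doses are not certain. In HL-60, NTX-301 samples were higher than DAC samples for 36 of 55 genes and lower for 6, against backgrounds of 15.4% and 15.0%, with a median of 0.15. The 6 lower genes were H1-6 (-0.83), H3C12 (-0.62), H1-3 (-0.46), H2BC6 (-0.40), H2BU1 (-0.28) and H4C4 (-0.25), 5 of them the genes with the highest DAC values. H4C12 had the highest difference, 0.32 ± 0.03 (SE, n = 3 per group, adjusted p = 1.31e-06, limma). For the 13 genes not called, the 95% intervals of the difference lay between -0.12 and 0.14. In MOLM-13, NTX-301 samples were higher than DAC samples for 12 of 62 genes and lower for none, against backgrounds of 3.01% and 4.41%, with a median of 0.09. H2BC7, an H2B gene, had the highest difference, 0.25 (12.21, 12.28 and 12.21 in DAC, 12.54, 12.49 and 12.43 in NTX-301), followed by H1-3 at 0.20. H2BU1 was at -0.16, without a call (adjusted p = 0.0927, limma, 95% interval -0.28 to -0.04). This count of 12 was not firm: it was 6 without DAC replicate 1 or without DAC replicate 3, and 6, 5 and 7 without NTX-301 replicate 1, 2 and 3 in turn. The 95% intervals of the 50 genes not called lay between -0.28 and 0.40.

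The drug effects differed between the lines for nearly every histone gene listed in both. In a fit of all 18 samples, the HL-60 effect was subtracted from the MOLM-13 effect, and the difference was called lower than 0 for 54 of 55 genes with DAC and for 52 of 55 with NTX-301, and higher for none. The backgrounds over 15474 genes were 17.9% and 22.4% called lower and 12.1% and 17.6% called higher, and the medians of the histone genes were -0.42 and -0.48. With DAC the lowest differences were H1-3 (-1.23), H3C12 (-1.10), H4C4 (-0.92) and H1-6 (-0.89). With NTX-301 the lowest was H2AC12, an H2A gene, at -0.62 ± 0.05 (SE, n = 3 per group, adjusted p = 7.69e-09, limma). H2BC3 differed under neither drug, and H1-6 and H2AC15 were not called with NTX-301 (-0.10 each).

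The untreated lines differed in which histone genes they used. The tables of the lines were normalized apart, so these levels are a description. In DMSO samples H3C12 was at 5.80 in HL-60 and 13.64 in MOLM-13, H1-3 at 7.58 and 13.05, H2BC6 at 5.71 and 10.14, H2AC14 at 11.39 and 14.78, H4-16 at 8.32 and 11.03, and H4C4 at 12.04 and 14.18. These were the 6 genes at least 2 log2 units lower in HL-60, and 4 of them (H1-3, H2BC6, H3C12 and H4C4) were among the 8 that rose with DAC there. The share that rose among all genes that much lower in HL-60 was not counted, so the 4 cannot be read as particular to histone genes. H1-6 went the other way, at 6.40 in HL-60 and 4.16 in MOLM-13. Over 55 genes, the level difference between lines and the HL-60 DAC effect had a Pearson r of 0.43 and a Spearman rho of -0.056, and the points share their libraries. Per length, the median level of each family in HL-60 DMSO samples ran from 12.08 (H1) to 14.70 (H4) in log2 per kilobase, among genes shorter than 1 kilobase with a single RefSeq transcript. The 4 H1 genes were split, with H1-6 at 6.86, H1-3 at 7.94, H1-2 at 16.21 and H1-4 at 16.37, so the H1 median describes none of them. H1-4 was the highest of all genes counted this way in HL-60.

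**Figure D4:**
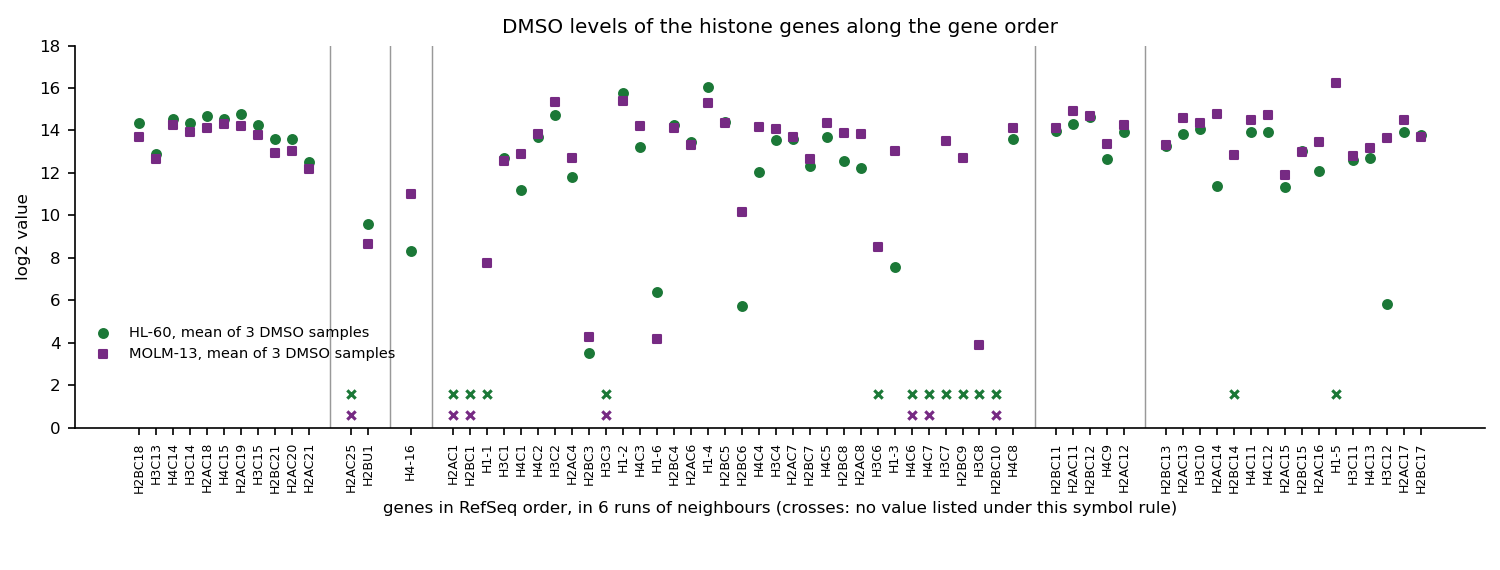
Mean log2 value of 3 DMSO samples (y) of each histone gene, in RefSeq gene order within 6 runs of neighbours (x), circles for HL-60 and squares for MOLM-13; crosses mark genes with no value under the symbols of the rule. Most genes sit at like levels in both lines, while H2BC6, H1-3, H2AC14 and H3C12 drop in HL-60 and several neighbours of H1-3 have no HL-60 value.

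Along the gene order the genes low or not listed in HL-60 were partly side by side. Between H2AC8 and H4C8, RefSeq orders H3C6, H1-3, H4C6, H4C7, H3C7, H2BC9, H3C8 and H2BC10, and only H1-3 had an HL-60 value. In MOLM-13, H1-3, H3C7 and H2BC9 of this run were at 13.05, 13.52 and 12.72, while H3C6 and H3C8 were low at 8.50 and 3.89. H4C6, H4C7 and H2BC10 had no value in either line. H2BC6 and H4C4 are neighbours, as are H2AC14 and H2BC14, the latter at 12.84 in MOLM-13 and not listed in HL-60. H1-5, at 16.24 in MOLM-13, also had no HL-60 value. Among the runs with at least 5 genes, the MOLM-13 DAC medians ran from -0.48 to -0.37.

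The 6 genes described as able to make polyadenylated RNA, H1-2, H2AC6, H2BC4, H2BC5, H2BC12 and H2BC21, were also counted apart, and whether they differ from the others was not tested. In MOLM-13 all 6 fell with each drug, with medians of -0.41 and -0.30 beside -0.41 and -0.33 for all histone genes, these 6 included. H2BC21 read 12.93, 12.99 and 12.96 in DMSO, 12.44, 12.53 and 12.45 in DAC and 12.64, 12.70 and 12.58 in NTX-301, falling by 0.48 and 0.32. In HL-60, 1 of the 6 fell with DAC (H2BC12, -0.07) and none rose, with a median of -0.03, and 5 rose with NTX-301, H2BC4 being the exception at 0.03. Of genes whose transcript model runs at least 150 bases past the stem-loop, 19 of 21 fell in MOLM-13 with each drug, beside 38 and 37 of the other 41. Those 41 include every gene without a stem-loop match, whose tail length is unknown, so they are not a set of genes with short tails.

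The genes that make, process and place histone messages were set beside them, in lists that share a few genes. Their counts stand against the shares over all genes given above: 21.2% (DAC) and 24.8% (NTX-301) called lower in MOLM-13, or 39.9% and 45.9% at a mean of 10 or more. In HL-60 the shares were 11.6% and 18.3% called higher and 12.6% and 19.2% called lower. S phase genes fell in MOLM-13, 21 of 24 with each drug and none higher, with medians of -0.31 and -0.38. PCNA, the sliding clamp of DNA polymerase, changed there by -0.28 and -0.26. In HL-60, 5 S phase genes rose and 1 fell with DAC, and 16 rose and 1 fell with NTX-301, with medians of 0.03 and 0.11. PCNA was the 1 that fell with DAC there (-0.11), and it had no call with NTX-301 (0.06). The part of S phase entry in the histone values was not tested. CCNA2, the S phase cyclin A, changed by -0.36 and -0.44 in MOLM-13 and by 0.03 (no call) and 0.11 in HL-60. CCNE1, a cyclin E, changed by -0.22 and -0.18 in MOLM-13 and by 0.09 and 0.25 in HL-60. CCNE2, the other cyclin E, was not called in MOLM-13 (-0.13 and -0.07) and changed by 0.10 (no call) and 0.43 in HL-60. CDK2, the kinase of cyclin E, changed by -0.29 and -0.29 in MOLM-13 and by -0.03 (no call) and 0.13 in HL-60.

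NPAT, the activator of histone genes, was not called in MOLM-13 (-0.08 and -0.04) and rose in HL-60 by 0.18 and 0.19. CASP8AP2, another protein of the histone locus body, fell in MOLM-13 by 0.18 and 0.19 and was at 0.05 (no call) and 0.18 in HL-60. SLBP, the stem-loop binding protein, fell in MOLM-13 by 0.32 and 0.38 and was not called in HL-60 (0.01 and 0.02). Of 23 genes of 3′ end processing and decay, 16 and 18 fell in MOLM-13, and in HL-60 7 and 4 fell while 1 and 2 rose, the 4 with NTX-301 being near the share over all genes. Of 13 genes for histone gene transcription, 8 fell in MOLM-13 with each drug and none rose, and in HL-60 3 and 7 rose while 2 and 3 fell.

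Of 25 histone chaperones, which carry histones to DNA, 16 fell and 1 rose with DAC in MOLM-13, and 19 fell and 4 rose with NTX-301. NASP, which holds a store of H3 and H4, fell there by 0.35 and 0.39, and CHAF1A, CHAF1B and ASF1B, which deposit H3 and H4 behind the replication fork, fell by between 0.22 and 0.33. In HL-60, 3 chaperones rose and 2 fell with DAC, and 8 rose and 5 fell with NTX-301. The DAC counts and the 5 that fell are near or below the shares over all genes. Of 15 genes of the histone variant list with a value in MOLM-13, H2AW among them, 5 fell and 1 rose with DAC. With NTX-301, 6 fell and 1 rose, and the medians were -0.05 (DAC) and -0.08 (NTX-301). The counts that fell lie between the shares over all genes (21.2% and 24.8%) and those at a mean of 10 or more (39.9% and 45.9%). They are not set apart from the background. H2AZ1, for a variant H2A at gene starts, fell by 0.40 and 0.52, and CENPA, the H3 of centromeres, by 0.45 and 0.48. They had the lowest values of this list with each drug, far from its medians. H3-3B, a gene for the replacement H3, fell by 0.22 with each drug, and H3-3A, the other, was at -0.06 (no call) and -0.08, a value that turned to 0.0317 under quantile normalization. In HL-60, of 13 variant genes tested, 1 rose and 2 fell with DAC, and 3 rose and 2 fell with NTX-301. Those counts are near the shares over all genes. There CENPA was at 0.11 (no call) and 0.24, and H2AZ1 at -0.08 and -0.02 (no call).

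**Figure D5:**
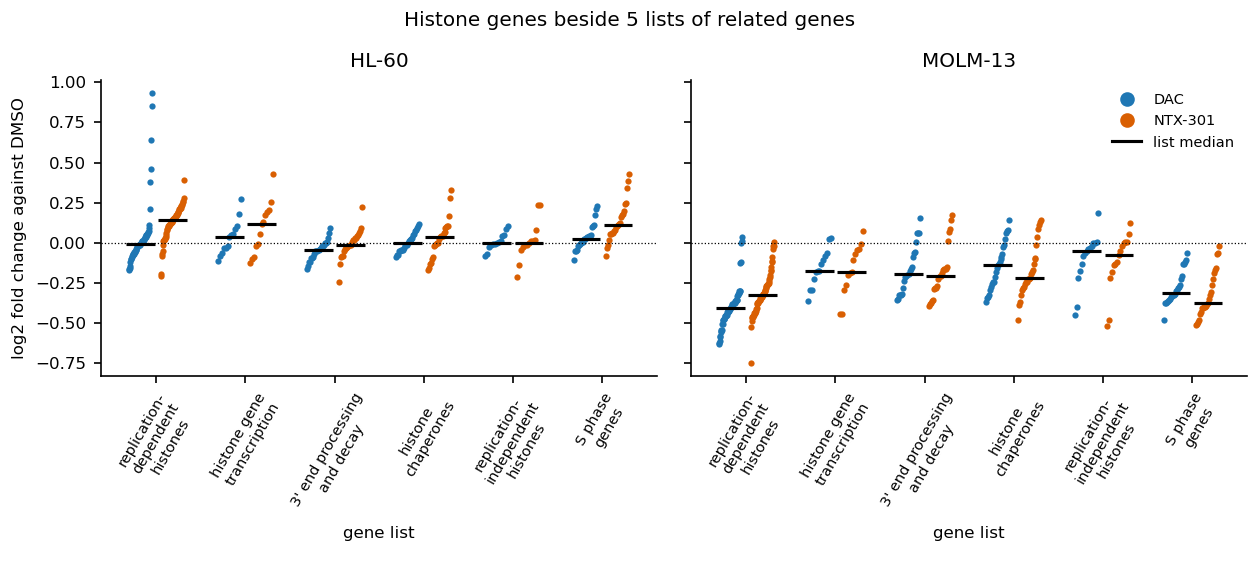
Log2 fold change against DMSO (y) of the histone genes and of 5 lists of related genes (x), in HL-60 and MOLM-13, with blue for DAC, orange for NTX-301 and bars for medians. In MOLM-13 the medians of the histone genes (-0.41 and -0.33) and of S phase genes (-0.31 and -0.38) are the lowest, and in HL-60 with NTX-301 the histone genes have the highest median, 0.14, followed by the genes of histone transcription (0.1145) and S phase genes (0.1093).

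Some of the genes may be hard to tell apart by their reads. Only coding sequences were compared, and how reads were assigned was not checked. The pairs H2AC18 and H2AC19, H3C14 and H3C15, H4C11 and H4C12, and H4C14 and H4C15 have coding sequences without a mismatch in GENCODE v29, so their reads may be split or shared. H4C15 minus H4C14 was 0.01 to 0.02 in the 9 MOLM-13 samples, while H4C12 minus H4C11 was 0.19 to 0.23 there and -0.02 to 0.04 in HL-60. Counting 1 gene of each pair, a choice made after the data were seen, left 53 and 52 genes lower in MOLM-13 with DAC and NTX-301. Coding sequences within a core histone family are close: equal-length pairs of H4 genes are a median 83.7% identical, and those of H2B genes 89.8%. The only H1 pair of equal length was 26.3% identical, compared base by base without alignment. The median SD between replicates was 0.03 to 0.07 for these genes over the 6 groups, above that of all genes in each group (0.0546 against 0.0314 in HL-60 DMSO samples, 0.0681 against 0.0429 in MOLM-13 DAC samples). The highest SD of a single gene was 0.27, for H4C11 in MOLM-13 DAC samples.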

How the data were processed

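Per the submitters' processing notes, FastQC, Trimmomatic 0.38, HISAT2, StringTie and the build hg19 were used, and the normalization method is not given in the sources used here. Each of the 18 samples has 1 file, in which the authors deposited normalized log2 values per gene. Read depth is unknown, so no interval that needs it is given. The sums of linear values are no depth and are not used as one.

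Groups were compared with limma 3.58.1 in R 4.3.3 (lmFit, eBayes with trend, two-sided) on the deposited values, with 9 samples of a line in 1 fit and Benjamini-Hochberg adjustment over all genes. A gene was kept where 3 or more samples had a linear value of 1 or more, which removed no histone gene. The difference between lines was a contrast over all 18 samples. The script was tested on simulated data. The members and lists were chosen with earlier results of these data known. Named by rule were, per comparison, the 3 highest and 3 lowest called members without overlap, the highest member of each family, the genes able to make polyadenylated RNA, H2BU1, H4-16 and set pathway genes.

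Alternatives were median centring, quantile normalization, no filter, a mean of 5 or more, a pseudocount of 1, no trend, 2 groups only, the replicate number as a block and each sample left out. Gene order and promoters are from RefSeq, build GRCh38.p14, and transcripts from GENCODE v29; they were matched by gene ID or symbol, and no coordinate was set against the hg19 values. The values of 1 gene of the histone variant list are not reported here.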

Additional observations from a re-analysis of the deposited data

Results flagged for a closer look

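The drug effect differed between the lines, by the test of the difference itself, for 54 of 55 histone genes with DAC and 52 of 55 with NTX-301, in limma with Benjamini-Hochberg adjustment over 15474 genes. With DAC the lowest differences, MOLM-13 minus HL-60, were -1.23 for H1-3, -1.10 for H3C12 and -0.92 for H4C4. With NTX-301 they were -0.62 for H2AC12, -0.62 for H4C14 and -0.62 for H4C15, and H4C14 and H4C15 share a coding sequence. The lines also differed in dose, which cannot be told apart from the line. Groups of 3 are too small to look for single outlying samples by the rule used here.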

How the results depend on the processing

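The 3 replicates per group, unknown depth and compressed low values limit precision. In MOLM-13, the count of 12 histone genes higher with NTX-301 than with DAC became 19 with median centring, 20 with quantile normalization, 19 when only genes with a mean of 5 or more were tested and 7 without the trend, and 5 to 17 with one sample left out. As totals over both directions, the other 7 counts stayed within 1.5 times their value in each alternative run, and a mean of 5 or more and 2 groups only were not run for the difference between lines. By direction, the HL-60 genes lower with DAC went from 9 to 15 without DMSO replicate 1, and those lower with NTX-301 from 3 to 5 with median centring. With one sample left out they were 13 to 22 (HL-60, DAC), 37 to 44 (HL-60, NTX-301), 38 to 43 (HL-60, NTX-301 against DAC), 57 to 57 (MOLM-13, DAC), 56 to 57 (MOLM-13, NTX-301), 53 to 54 and 52 to 53 (difference between lines, DAC and NTX-301). Quantile normalization moved the MOLM-13 medians to -0.32 (DAC) and -0.22 (NTX-301). H3-3A with NTX-301 in MOLM-13 turned from -0.08 to 0.0317 under quantile normalization. Of 572 values of single genes, 484 kept their call in every alternative, and the cause of the other changes was not tested. Same-numbered samples were not paired (correlations of deviations -0.16 to 0.118, other numbers -0.12 to 0.159). With the replicate number as a block the counts were 19, 45, 43, 57, 56, 8, 54 and 52, in the order HL-60 then MOLM-13 (DAC, NTX-301, NTX-301 against DAC), then the lines.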
